A study of Homo sapiens with 4 samples.

Results

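The TRIM genes encode proteins with a tripartite motif, which is a RING domain that binds a ubiquitin-charged E2 enzyme, 1 or more B-box zinc fingers and a coiled coil through which the proteins pair. A further domain at the carboxyl end usually selects the substrate, so most members act as E3 ubiquitin ligases. Several members are induced by interferon and restrict viruses or tune the sensing of viral RNA and DNA, whereas others bind microtubules, muscle sarcomeres or chromatin. The family is described here at the mRNA level in 786-O, a clear cell renal carcinoma line without functional VHL, itself the substrate receptor of another E3 ligase. Members were all genes of the raw count table whose symbol starts with TRIM and a digit, which gave 39 of 12912 genes, and 38 of the 39 had enough counts to be tested. No symbol was repeated among them, and the rule used no measured value other than total counts, which would have settled a repeat.

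RNA-seq compared 2 libraries of 786-O-Ctrl (VHL-null, here Ctrl) with 2 of 786-O-VHL (VHL restoration, here VHL-restored). Per the methods of the study, HA-tagged VHL was put into the latter with a retroviral vector, both sublines were grown in RPMI1640 with serum, and the labels name 786-OTR, the version with a stably expressed reporter of GFP, luciferase and thymidine kinase. What vector, if any, the control carries besides the reporter is not given in the sources used here. Each group is 1 subline, and nothing says that the duplicates came from separate cultures, so p-values measure only the spread between these libraries. Both Ctrl columns carry the same replicate number and are therefore called the deeper and the shallower library.

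Total counts were 22141263 and 15714166 in Ctrl and 2807779 and 16114120 in VHL-restored replicates 1 and 2, and the replicates of each group differed by more than sampling noise. Where no read was counted, as many as 3 remain possible, which is 1.02 CPM (counts scaled to a fixed library total by edgeR's TMM method) in VHL-restored replicate 1 and 0.142 to 0.199 CPM elsewhere. This limit covers counting error only. VHL mRNA was 42.9 and 43.9 CPM in Ctrl and 178 and 163 CPM in VHL-restored cells, so the restored gene was higher where the labels say so. All 6 markers listed for 786-O cells (PAX8, PAX2, KRT8, KRT18, VIM and EPAS1) were counted, with a summed level of 3234 and 3235 CPM in Ctrl and 2395 and 2413 CPM in VHL-restored cells. Within this sum EPAS1 rose 2.58-fold, whereas VIM, PAX8, KRT8 and PAX2 fell, to 0.432, 0.536, 0.679 and 0.757 of their Ctrl levels. The PAX2 call was lost with DESeq2 (FDR = 0.0543) and after thinning all libraries to the depth of the shallowest (edgeR FDR = 0.640). It was also lost without VHL-restored replicate 2 (log2 fold change -0.15). The rise of EPAS1 is of mRNA only, as the paper's Western blot showed its protein, HIF2α, diminished by VHL. Of 9 markers of leukocytes, endothelium and fibroblasts, 3 were counted (PECAM1, PDGFRB and COL1A1), with a summed level of 10.1 and 10.2 CPM in Ctrl and 13.2 and 13.0 CPM in VHL-restored cells, and the part of such cells in the results was not tested. PDGFRB was the marker of these that rose (1.63-fold, edgeR FDR = 0.0147). That call was lost with DESeq2 (FDR = 0.174), without the deeper Ctrl library (log2 fold change 0.50) and without VHL-restored replicate 2 (0.63). The other markers were not analysed here.

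To show sequence beside the interferon-inducible members, promoter windows of 300 bases around annotated start sites (RefSeq, GRCh38.p14) were searched on both strands for the core of the interferon-stimulated response element, which is GAAA, any 2 bases, and GAAA again. Windows were found for 28 of the 39 members. The core was present in 7 of their 40 windows, and in 3.57% of all 35116 promoter windows. It was found for 4 of the 8 interferon-inducible members with a window (TRIM5, TRIM14, TRIM21 and TRIM69) and for 3 of the 20 other members with a window (TRIM2, TRIM16 and TRIM44). The stretches around these matches are given below 5′ to 3′ on the strand of the gene, with the matched core in capitals, because they are the promoter letters that these members have in common. A core that lies on the opposite strand reads TTTC, 2 bases, TTTC. Positions in GRCh37 come from an exact match of each window to that genome.
TRIM5, chr11:5706307-5706346, minus strand: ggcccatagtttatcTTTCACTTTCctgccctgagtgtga
TRIM14, chr9:100881506-100881545, minus strand: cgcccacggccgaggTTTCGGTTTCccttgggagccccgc
TRIM21, chr11:4414893-4414922, minus strand: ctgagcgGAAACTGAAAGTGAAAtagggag
TRIM69, chr15:45028649-45028688, plus strand: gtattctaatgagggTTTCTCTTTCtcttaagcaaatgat
TRIM2, chr4:154073083-154073122, plus strand: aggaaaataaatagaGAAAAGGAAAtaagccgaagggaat
TRIM16, chr17:15586321-15586360, minus strand: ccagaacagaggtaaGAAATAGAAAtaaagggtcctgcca
TRIM44, chr11:35684273-35684312, plus strand: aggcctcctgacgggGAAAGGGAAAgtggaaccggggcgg
In TRIM21, 2 overlapping matches lie just past the start site, and the other matches lie upstream of it. A match of these letters is a description and not a bound site. For the other members with a window, it says only that the letters were not in the windows searched. Among interferon-inducible members these were TRIM6, TRIM25, TRIM38 and TRIM56, while TRIM22 had no window and was not searched. TRIM2 had several windows and held the core in 1 of them. The core letters of hypoxia response elements were found in 11 of the 40 windows in the form ACGTG and in 13 in the form GCGTG, against 21.4% and 36.5% of all windows. The interferon gamma-activated sequence, TTCNNNGAA, was found in 5 of the 40 windows, against 7.66% of all.

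To ask how the family responded to VHL restoration, 12335 genes were tested by quasi-likelihood in edgeR, with p-values adjusted by Benjamini-Hochberg (FDR), and the TRIM genes were read from that fit. Of the 38 tested, 11 rose and 8 fell in VHL-restored cells at an FDR under 0.05, where 32.6% of all genes tested were higher and 31.9% were lower. In either direction, 19 of the 38 passed, beside 64.5% of all genes. The median log2 fold change of the family (VHL-restored over Ctrl, as throughout) was 0.01, beside 0.02 for all genes, and the median absolute log2 fold change was 0.32, beside 0.43. Within groups, replicates differed by a median absolute log2 value of 0.08 for Ctrl and 0.13 for VHL-restored cells for the 37 TRIM genes tested that had counts in every library. In bulk RNA of this kind, fewer cells that express a gene and less RNA of it per cell cannot be told apart. With counts scaled by library totals alone, 15 members were higher and 6 were lower, and of all genes 5077 were higher and 3097 lower, in place of 4017 and 3939, with the median of all genes at 0.15.

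Changes were mostly small. At a 2-fold change or more with an FDR under 0.05, 2 members were higher (TRIM2 and TRIM38) and 2 were lower (TRIM9 and TRIM55), beside 10.0% and 7.52% of all genes in those directions and 17.5% in either. None passed a change over 4-fold with an FDR under 0.01 by edgeR, DESeq2 or limma-voom, a threshold that 4.46% of all genes passed in edgeR, and the count was also 0 at an unadjusted p under 0.05 with that fold change, which 4.53% of all genes passed. The libraries of both groups did not overlap for 26 of the 38 members, beside 80.0% of all genes. Of these, 14 were higher and 12 lower with VHL, beside 40.8% and 39.2% of all genes, and all 19 members past the FDR were among them. Of the 19 that did not pass, 15 had a 95% interval of the log2 fold change within 2-fold in either direction.

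**Figure D1:**
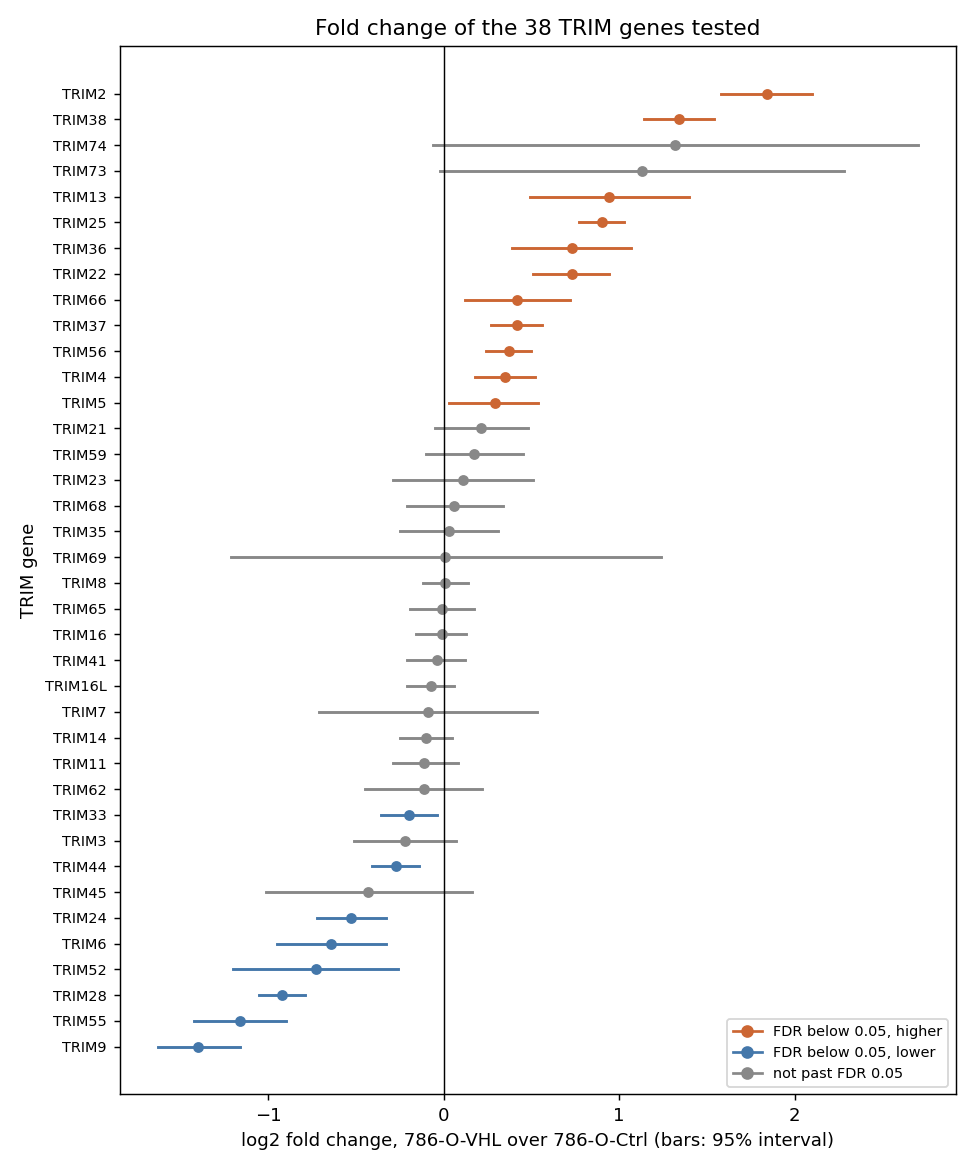
The log2 fold change (horizontal axis, VHL-restored over Ctrl) of the 38 TRIM genes tested is drawn with its 95% interval, colored by the result of the test. TRIM2 is highest at 1.84 and TRIM9 lowest at -1.40, and the wide intervals of TRIM74, TRIM73 and TRIM69 belong to genes with few counts.

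Levels were compared between members per kb of annotated exon (GENCODE, GRCh37), leaving out TRIM16L, whose annotated exons are partial. In Ctrl, 11 of 38 members were above 10 CPM per kb, 18 were between 1 and 10, and 9 were below 1. TRIM28, the corepressor that zinc finger repressors recruit to silence retroelements, was far above the rest at 119 CPM per kb in Ctrl and 62.4 in VHL-restored cells. It was followed in Ctrl by TRIM8, a regulator of cytokine signaling, at 31.1 CPM per kb, and in VHL-restored cells by the same gene at 31.3 CPM per kb. TRIM28 took 22.6% and 21.5% of all counts on TRIM genes in Ctrl and 11.5% and 11.8% in VHL-restored cells. The counted members together took 0.221% and 0.222% of the counts in Ctrl and 0.240% and 0.243% in VHL-restored cells. TRIM genes that were not counted are not part of these shares.

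**Figure D2:**
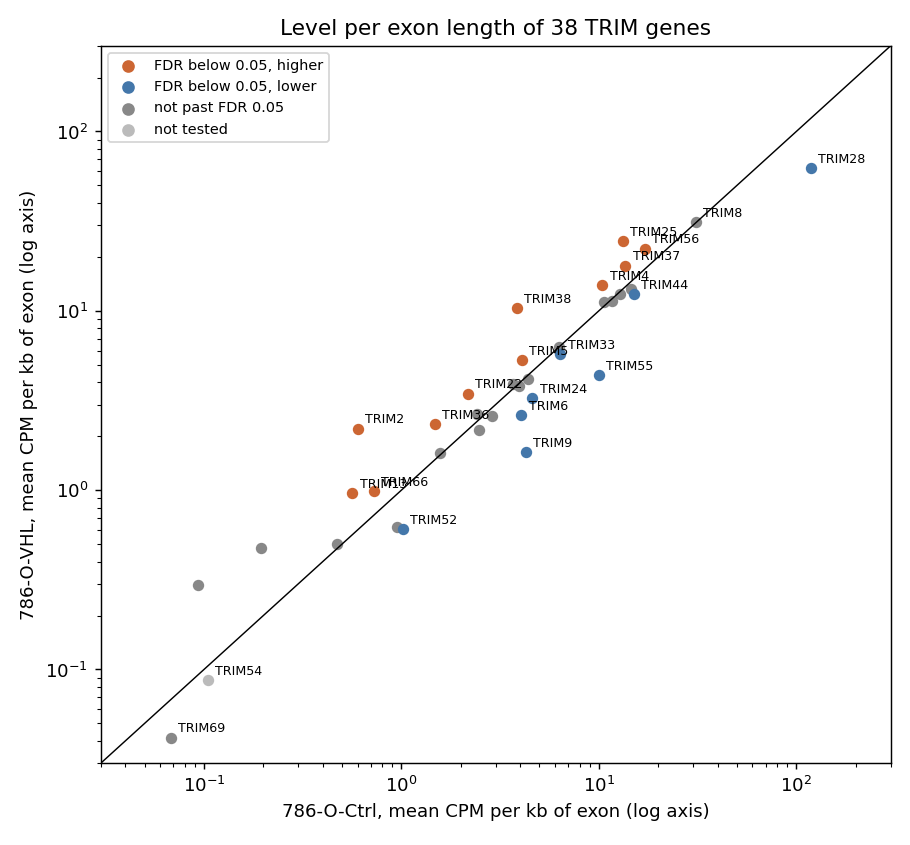
The mean level of each TRIM gene in VHL-restored cells (vertical, CPM per kb of exon, log axis) is plotted against that in Ctrl (horizontal, same unit, log axis), with equal levels on the line. TRIM28, at 119 and 62.4 CPM per kb, stands apart at the top and below the line, and TRIM38 and TRIM2 stand farthest above it among genes past the FDR.

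The interferon-inducible members were read next. Of 11 listed, 9 were counted and tested (TRIM26 and TRIM34 were not analysed here), and 5 were higher, 1 was lower and 3 did not pass the FDR. Higher at 5 of 9 stands beside 32.6% of all genes, and the median log2 fold change of the list was 0.29, beside 0.02. These are counts of a short list and were not tested as a set.

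TRIM38 (ENSG00000112343.11, chromosome 6 of GRCh37, 25963030 to 25991459), which dampens signaling from innate immune receptors, was 34.3 and 37.9 CPM in Ctrl and 113 and 82.4 CPM in VHL-restored cells. Both VHL libraries were above both controls, although replicate 1 was well above replicate 2. Its log2 fold change was 1.34 (standard error, SE, 0.0978, edgeR FDR = 1.37e-12). With each library left out in turn, it lay between 1.20 and 1.65.

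TRIM25 (ENSG00000121060.18, chromosome 17, 54913748 to 54991441) ubiquitinates the viral RNA sensor RIG-I. Its mRNA was 160.0 and 168 CPM in Ctrl and 291 and 315 CPM in VHL-restored cells, with groups far apart and replicates close. The log2 fold change was 0.90 (SE 0.0645, edgeR FDR = 9.96e-13). TRIM22 (ENSG00000132274.16, chromosome 11, 5710840 to 5758319), a nuclear restriction factor of several viruses, was 25.3 and 29.4 CPM in Ctrl and 39.7 and 46.9 CPM in VHL-restored cells. The groups did not overlap, and the log2 fold change was 0.73 (SE 0.104, edgeR FDR = 6.49e-07), or 0.46 after thinning all libraries to the depth of the shallowest. This rise is of mRNA only. The paper lists TRIM22 among the proteins that were ubiquitinated and lower in VHL-restored cells, so protein and mRNA went opposite ways.

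TRIM56 (ENSG00000169871.13, chromosome 7, 100728762 to 100741248), which promotes the response to DNA in the cytosol, was 193 and 187 CPM in Ctrl and 255 and 239 CPM in VHL-restored cells. Its rise was small but larger than the spread, at a log2 fold change of 0.37 (SE 0.0638, edgeR FDR = 1.33e-05). TRIM5 (ENSG00000132256.18, chromosome 11, 5684425 to 5959849), which recognizes retroviral capsids and whose promoter stretch is printed above, was 23.6 and 19.9 CPM in Ctrl and 31.5 and 25.2 CPM in VHL-restored cells. The lowest VHL library was only just above the highest control, and the log2 fold change was 0.29 (SE 0.124, edgeR FDR = 0.0431). This call rested on single libraries, with a log2 fold change of 0.20 both without VHL-restored replicate 1 (FDR = 0.133 by edgeR) and without the shallower Ctrl library (FDR = 0.327 by edgeR), and of 0.52 without VHL-restored replicate 2. It was also lost with DESeq2, with RLE size factors and after thinning, at FDR values of 0.172, 0.0541 and 0.119.

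TRIM6, which makes unanchored ubiquitin chains that activate the interferon pathway, was the interferon-inducible member that fell. It lies on chromosome 11 at 5617339 to 5634188, next to TRIM5 and TRIM22 (ENSG00000121236.21). TRIM6 mRNA was 16.5 and 15.6 CPM in Ctrl and 10.52 and 10.3 CPM in VHL-restored cells, without overlap, and the log2 fold change was -0.64 (SE 0.151, edgeR FDR = 0.000549). Of the distinct stretches of 50 bases in its annotated transcripts, 25.8% also occur in transcripts of other genes, mainly the TRIM6-TRIM34 readthrough, so its level is uncertain. The 3 counted members of this paralog cluster on chromosome 11 therefore differed in direction, with TRIM5 and TRIM22 higher and TRIM6 lower.

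The remaining interferon-inducible members did not pass the FDR. TRIM14, an adaptor of antiviral signaling that lacks a RING, was 80.3 and 79.8 CPM in Ctrl and 69.2 and 76.8 CPM in VHL-restored cells, at a log2 fold change of -0.10 (95% interval -0.25 to 0.05). TRIM21, the cytosolic antibody receptor, was 20.8 and 20.5 CPM in Ctrl and 17.6 and 26.0 CPM in VHL-restored cells, so that the VHL libraries lay on either side of the controls. Its log2 fold change was 0.21 (95% interval -0.05 to 0.48), and it turned with the library left out, to 0.33 without VHL-restored replicate 1 (edgeR FDR = 0.0121) and -0.23 without replicate 2 (edgeR FDR = 0.372). TRIM69 had 14 and 9 counts in Ctrl and 0 and 13 in VHL-restored cells, too few to show a change, with a 95% interval from -1.21 to 1.24. All 3 hold the response element core printed above, as does TRIM5.

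**Figure D3:**
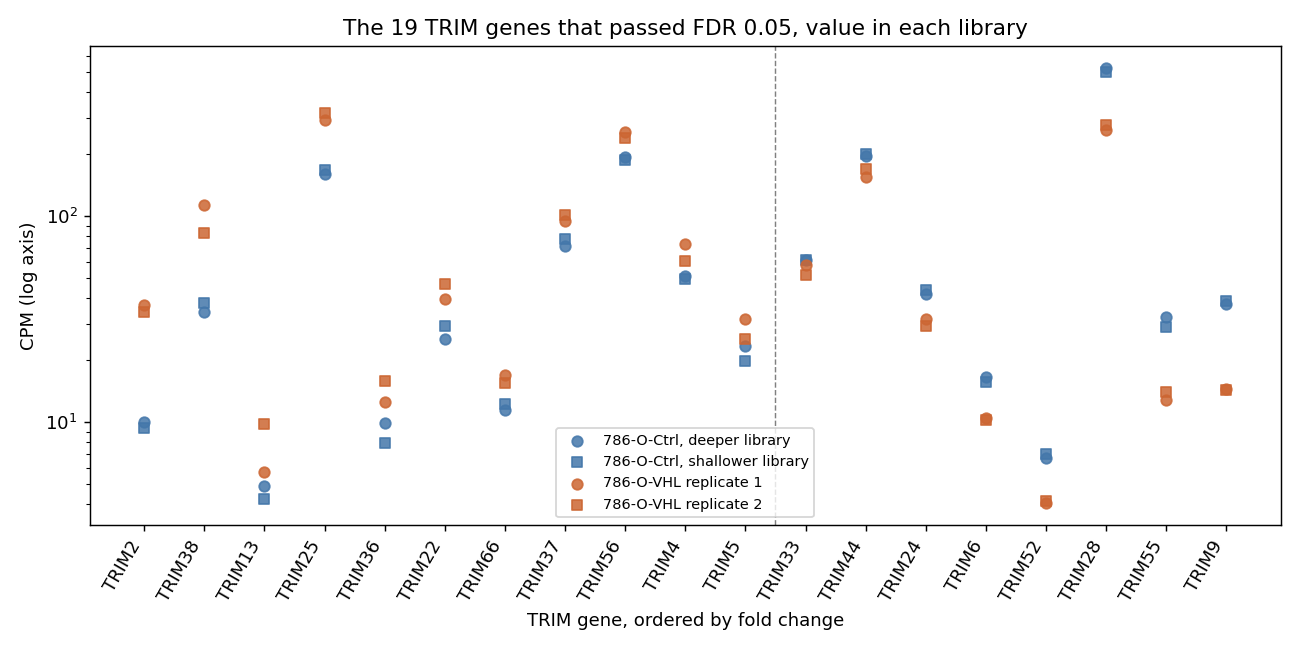
The level in each library (vertical, CPM, log axis) of the 19 TRIM genes past an FDR of 0.05 is shown with Ctrl in blue and VHL-restored in orange, ordered by fold change, with the 11 that rose left of the dashed line and the 8 that fell right of it. Blue and orange points do not overlap in any of the 19, and TRIM5 and TRIM33 have the narrowest gaps.

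The PRY-SPRY class is named after a substrate-binding domain that most interferon-inducible TRIM proteins also carry. Of 31 genes listed for it, 15 were counted and tested, and of these 5 were higher, 1 was lower and 9 did not pass. The share higher was near the 32.6% of all genes and the share lower was under their 31.9%, and the class median was 0.03, beside 0.02. Besides the members above, TRIM4, another ligase of RIG-I, passed, at 51.1 and 49.5 CPM in Ctrl and 73.3 and 60.9 CPM in VHL-restored cells. Its log2 fold change was 0.35 (SE 0.0832, edgeR FDR = 0.000627), and 0.53 without VHL-restored replicate 2. TRIM11, TRIM35, TRIM41, TRIM62, TRIM65 and TRIM68 did not pass, with log2 fold changes from -0.11 to 0.06. For TRIM11, TRIM35 and TRIM65, the VHL-restored libraries lay on either side of the controls. The log2 fold change of TRIM11 was -0.20 without VHL-restored replicate 1 and 0.15 without replicate 2. That of TRIM35 was 0.09 without replicate 1 and -0.23 without replicate 2. TRIM7, which binds glycogenin, had 13 to 61 counts per library and a log2 fold change of -0.09 (95% interval -0.71 to 0.53), which was 0.37 without VHL-restored replicate 2 and 0.17 without the shallower Ctrl library.

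The largest rise of the family was that of TRIM2, a ligase with NHL repeats that is known from neurons, where it acts on neurofilament light chain. TRIM2 (ENSG00000109654.15, chromosome 4, 154073315 to 154260471) was 10.1 and 9.44 CPM in Ctrl and 36.98 and 34.4 CPM in VHL-restored cells. The groups were far apart, and the log2 fold change was 1.84, or 3.58-fold (SE 0.125, edgeR FDR = 3.22e-13). Every library left out in turn gave between 1.80 and 1.91. Of its 50-base stretches, 18.9% are shared, nearly all with a gene annotated on the same strand. TRIM3, the other NHL member tested, was 17.8 and 15.6 CPM in Ctrl and 14.6 and 14.3 CPM in VHL-restored cells, and did not pass (log2 fold change -0.22, 95% interval -0.51 to 0.07).

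The largest fall was that of TRIM9, a brain-enriched ligase of the COS-FN3 class, whose COS box binds microtubules. TRIM9 (ENSG00000100505.13, chromosome 14, 51441980 to 51562779) was 37.6 and 38.6 CPM in Ctrl and 14.6 and 14.4 CPM in VHL-restored cells, with replicates that nearly coincided. Its log2 fold change was -1.40 (SE 0.116, edgeR FDR = 2.17e-11) and lay between -1.42 and -1.38 whichever library was left out. TRIM36, the other tested member of this class, went the opposite way, from 9.97 and 7.91 CPM in Ctrl to 12.6 and 15.8 CPM in VHL-restored cells. Its log2 fold change of 0.73 (SE 0.167, edgeR FDR = 0.000367) was no longer past the threshold without VHL-restored replicate 2, at 0.47 (edgeR FDR = 0.192).

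TRIM55, a muscle ligase of the sarcomere with a COS box (ENSG00000147573.17, chromosome 8, 67039131 to 67087720), also fell. It was 32.6 and 29.0 CPM in Ctrl and 12.9 and 14.1 CPM in VHL-restored cells, without overlap, at a log2 fold change of -1.16 (SE 0.126, edgeR FDR = 4.79e-09). Leaving out each library gave -1.27 to -1.08. TRIM54, a muscle ligase of the same class, was near the limit of detection, with 5 and 5 counts in Ctrl and 0 and 8 in VHL-restored cells, and was not tested.

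All 3 members listed for the PHD-bromodomain class, chromatin readers that act as transcriptional cofactors, were lower, where 31.9% of all genes were. Their relative TRIM66, listed with the members without a RING and given below, was higher, at a log2 fold change of 0.42. TRIM28 (ENSG00000130726.12, chromosome 19, 59055431 to 59062089) was 524 and 498 CPM in Ctrl and 262 and 275 CPM in VHL-restored cells, so that it stood at 0.528 of its control level. Its log2 fold change was -0.92 (SE 0.0634, edgeR FDR = 4.15e-13), between -0.97 and -0.79 under all alternatives run. TRIM24, a coregulator of nuclear receptors, was 42.0 and 43.7 CPM in Ctrl and 31.5 and 29.2 CPM in VHL-restored cells, a log2 fold change of -0.53 (SE 0.0969, edgeR FDR = 2.91e-05). TRIM33, which acts on SMAD signaling, was 61.2 and 61.5 CPM in Ctrl and 58.0 and 51.8 CPM in VHL-restored cells, a difference of only -0.20 on the log2 scale (edgeR FDR = 0.0282). That call was lost without either Ctrl library (FDR of 0.187 without the deeper and 0.182 without the shallower, by edgeR) and without VHL-restored replicate 2, where the log2 fold change was -0.09 (edgeR FDR = 0.578). DESeq2, library totals alone and thinning lost it too, at FDR values of 0.206, 0.466 and 0.369, so that 2 members of the class fell under every alternative run.

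TRIM37, which restrains centrosome assembly through a MATH domain, rose from 72.0 and 77.4 CPM in Ctrl to 94.6 and 101 CPM in VHL-restored cells, a log2 fold change of 0.42 (SE 0.0707, edgeR FDR = 9.36e-06). TRIM13, anchored in the endoplasmic reticulum, was 4.89 and 4.25 CPM in Ctrl and 5.77 and 9.80 CPM in VHL-restored cells. The rise of TRIM13 rested on VHL-restored replicate 2, as its log2 fold change was 0.94 (edgeR FDR = 0.000487) with that library and 0.32 (edgeR FDR = 0.553) without it. DESeq2 gave an FDR of 0.0554 for it, and its transcripts share 21.2% of their 50-base stretches with other genes. TRIM23, TRIM45 and TRIM59, the other members with a rare carboxyl-terminal domain or a membrane anchor, did not pass, with log2 fold changes of 0.11 (95% interval -0.29 to 0.51), -0.43 (-1.01 to 0.16) and 0.17 (-0.10 to 0.45). Single libraries moved these values. TRIM45 was -1.05 without VHL-restored replicate 2 and -0.23 without the deeper Ctrl library. TRIM23 was -0.11 without VHL-restored replicate 2, and TRIM59 was -0.01 without the deeper Ctrl library. The transcripts of TRIM59 share 31.6% of their 50-base stretches with other genes, and a gene on the opposite strand covers 19.9% of its exons. The level of TRIM59 is therefore uncertain.

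Among members without a RING, TRIM44 fell and TRIM66 rose, both by little. TRIM44, which carries a deubiquitinase-like zinc finger, was 195 and 201 CPM in Ctrl and 154 and 169 CPM in VHL-restored cells, a log2 fold change of -0.27 (SE 0.0658, edgeR FDR = 0.000744). With library totals alone it was -0.14 (edgeR FDR = 0.0661). TRIM66, a relative of the PHD-bromodomain class, was 11.5 and 12.2 CPM in Ctrl and 17.0 and 15.5 CPM in VHL-restored cells, at a log2 fold change of 0.42 (edgeR FDR = 0.0150). It did not pass without the deeper Ctrl library (0.38, edgeR FDR = 0.145), without the shallower (0.46, edgeR FDR = 0.0618), without VHL-restored replicate 2 (0.51, edgeR FDR = 0.0789), or with DESeq2 (FDR = 0.147). TRIM16, which responds to damaged endomembranes, was 71.6 and 72.0 CPM in Ctrl and 68.5 and 72.0 CPM in VHL-restored cells, at a log2 fold change of -0.01 (95% interval -0.16 to 0.13). TRIM16L, its truncated copy, was 168 and 177 CPM in Ctrl and 150.3 and 171 CPM in VHL-restored cells and did not pass (log2 fold change -0.07), though it did without VHL-restored replicate 2 (-0.20, edgeR FDR = 0.0358). TRIM16 shares 46.6% of its 50-base stretches with other genes, 28.9% with TRIM16L, and reads may have been divided between them. TRIM16L is annotated as a transcribed pseudogene, and 100% of its stretches recur in another entry of the same name. Both levels are therefore uncertain.

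Of 5 members with a RING and a B-box but no further domain at the carboxyl end, 1 was higher (TRIM56, above), 1 was lower and 3 did not pass. Of all genes, 32.6% were higher and 31.9% lower. TRIM8 was 220 and 214 CPM in Ctrl and 218 and 219 CPM in VHL-restored cells, with VHL-restored libraries inside the range of the controls, at a log2 fold change of 0.01 (95% interval -0.12 to 0.14). TRIM52 fell from 6.74 and 7.04 CPM in Ctrl to 4.07 and 4.16 CPM in VHL-restored cells, a log2 fold change of -0.73 (SE 0.229, edgeR FDR = 0.00669). It had 12 counts in the shallow library and 106 to 142 in the controls, and it did not pass without VHL-restored replicate 2 (-0.76, edgeR FDR = 0.134), without the shallower Ctrl library (-0.71, edgeR FDR = 0.0626) or with DESeq2 (FDR = 0.0900). An annotated antisense gene covers 27.6% of its exons, and strand use in counting is not given. TRIM73 and TRIM74, near-identical copies, had 7 to 15 and 2 to 12 counts per library. Their log2 fold changes of 1.13 and 1.32 did not pass, with 95% intervals of -0.02 to 2.28 and -0.06 to 2.70. TRIM73 passed without VHL-restored replicate 2 (2.15, edgeR FDR = 0.0414), which leaves the 7 counts of the shallow library, and was 0.75 (edgeR FDR = 0.309) without replicate 1, which leaves the 15 counts of the deeper one.

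**Figure D4:**
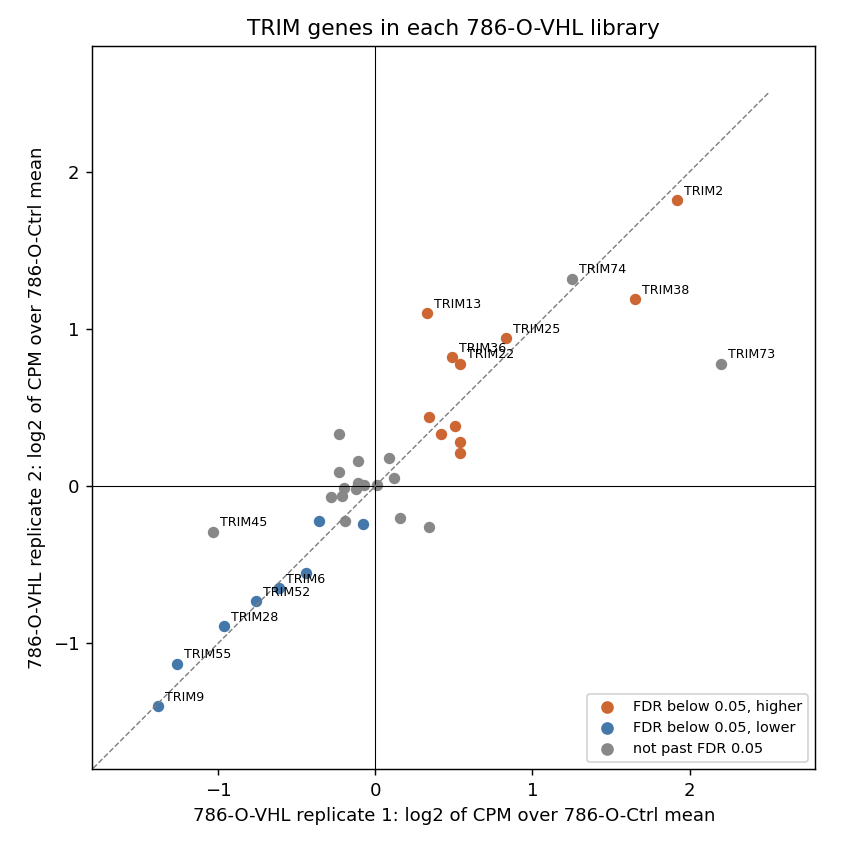
For each TRIM gene tested with counts in every library, the log2 ratio of VHL-restored replicate 2 to the Ctrl mean (vertical) is plotted against that of the shallower replicate 1 (horizontal), with equal ratios on the dashed line. TRIM2 lies at 1.92 and 1.82 and TRIM9 at -1.38 and -1.40 in replicates 1 and 2, while TRIM13 (0.33 and 1.10) and TRIM73 (2.20 and 0.78) differ most between the libraries.

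Partners of the family were read from lists of genes around it. Of family members under other symbols, 5 were tested. MID2, a microtubule-bound ligase of the COS-FN3 class, rose by a log2 fold change of 1.06 (edgeR FDR = 7.88e-08), and its paralog MID1 by 0.23 (edgeR FDR = 0.0301). The call of MID1 was lost without the deeper Ctrl library (0.31, edgeR FDR = 0.0651), without the shallower (0.18, edgeR FDR = 0.291), without VHL-restored replicate 2 (0.29, edgeR FDR = 0.110) and with DESeq2 (FDR = 0.220). PML, the organizer of nuclear bodies, did not pass at -0.12 (edgeR FDR = 0.105), though it did without VHL-restored replicate 1 at -0.17 (edgeR FDR = 0.00552). TRIML2 was lower at a log2 fold change of -1.60 (edgeR FDR = 0.000724). It had 61 and 49 counts in Ctrl and 2 and 18 in VHL-restored cells. In VHL-restored replicate 1 its 0.678 CPM was below the 1.02 CPM that remain possible there where no read was counted. MEFV (pyrin) had 18 and 16 counts in Ctrl and 0 and 5 in VHL-restored cells, and its call as lower (edgeR FDR = 0.0194) was lost whichever library was left out, at edgeR FDR values of 0.0524 without the deeper Ctrl library, 0.0946 without the shallower, 0.0558 without VHL-restored replicate 1 and 0.101 without replicate 2.

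Of 10 E2 enzymes and cofactors that work with RING domains, 1 was higher, 2 were lower and 7 did not pass, so that fewer were called than the 64.5% of all genes, with a median log2 fold change of -0.11. UBE2N, which builds the chains used in innate immune signaling, fell by 0.84 on the log2 scale (edgeR FDR = 4.88e-11), and UBE2D1 by 0.30 (edgeR FDR = 0.0332). The UBE2D1 call was lost without the shallower Ctrl library (-0.21, edgeR FDR = 0.309), without VHL-restored replicate 1 (-0.22, edgeR FDR = 0.100) and with DESeq2 (FDR = 0.105), and its log2 fold change was -0.47 without the deeper Ctrl library and -0.64 without VHL-restored replicate 2. UBE2W, which attaches the priming ubiquitin of TRIM5 and TRIM21, rose by 0.57 (edgeR FDR = 5.00e-07). Of the interferon signaling genes, 8 are reported, a list shortened after its values were seen, so its counts describe these 8 genes only. Higher were 5 (IRF1, IRF7, STAT2, IRF2 and JAK1), beside 32.6% of all genes, TYK2 was lower, beside 31.9%, and 2 did not pass. IRF1, a transcription factor of this pathway, rose most of these, from 69.2 to 269 CPM on average, a log2 fold change of 1.98 (edgeR FDR = 4.00e-19). IRF7, which amplifies interferon induction, rested on VHL-restored replicate 2, with a log2 fold change of 1.74 with it and 0.82 (edgeR FDR = 0.404) without it. The small rise of JAK1 (0.16, edgeR FDR = 0.0194) was lost without the deeper (FDR = 0.251, edgeR) and without the shallower Ctrl library (FDR = 0.211, edgeR) and with DESeq2 (FDR = 0.0972).

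Of 10 sensors and adaptors that TRIM ligases modify, 2 were higher, 4 were lower and 4 did not pass, not far from the 32.6% higher and 31.9% lower of all genes. The higher genes were both viral RNA sensors, DDX58 (RIG-I, the target of TRIM25 and TRIM4) at a log2 fold change of 1.51 and IFIH1 (the sensor of long double-stranded RNA, on which TRIM65 acts) at 1.35. IKBKG, IRF3, TRAF3 and MAVS were lower, at -1.41, -0.31, -0.27 and -0.20, and the level of IKBKG is uncertain because a near-identical pseudogene exists. The smaller of these did not hold throughout: TRAF3 was lost without the shallower Ctrl library (-0.21, edgeR FDR = 0.108), and MAVS without the deeper (FDR = 0.173, edgeR), without the shallower (FDR = 0.0770, edgeR) and without VHL-restored replicate 2 (FDR = 0.0507, edgeR). Of the 12 corepressor partners of TRIM28, 7 were lower, 2 were higher and 3 did not pass, beside 31.9% lower and 32.6% higher of all genes, and the median was -0.22, beside 0.02. These were not tested as a set, and 2 of the 7 (CHD3 and HDAC2) were lost under alternatives given below. The lower genes included the deacetylase HDAC1 (-0.78), PPHLN1 of the HUSH silencing complex (-0.54) and the heterochromatin proteins CBX5, CBX1 and CBX3 (-0.35, -0.33 and -0.33). The histone methyltransferase SETDB1 did not pass, at 0.10 (edgeR FDR = 0.415), and MORC2 (0.48) and ATF7IP (0.33) were higher. ATF7IP was lost with DESeq2 (FDR = 0.0692) and after thinning (0.11, edgeR FDR = 0.550). It was also lost without VHL-restored replicate 2 (0.30), as was CHD3, a lower gene at -0.24, at -0.11. CHD3 and HDAC2 (-0.20) were lost without the deeper Ctrl library (edgeR FDR of 0.0797 and 0.0798), and HDAC2 also without the shallower (edgeR FDR = 0.122). With library totals alone, TRAF3, MAVS, TYK2, CHD3, HDAC2 and UBE2D1 were no longer past the threshold.

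**Figure D5:**
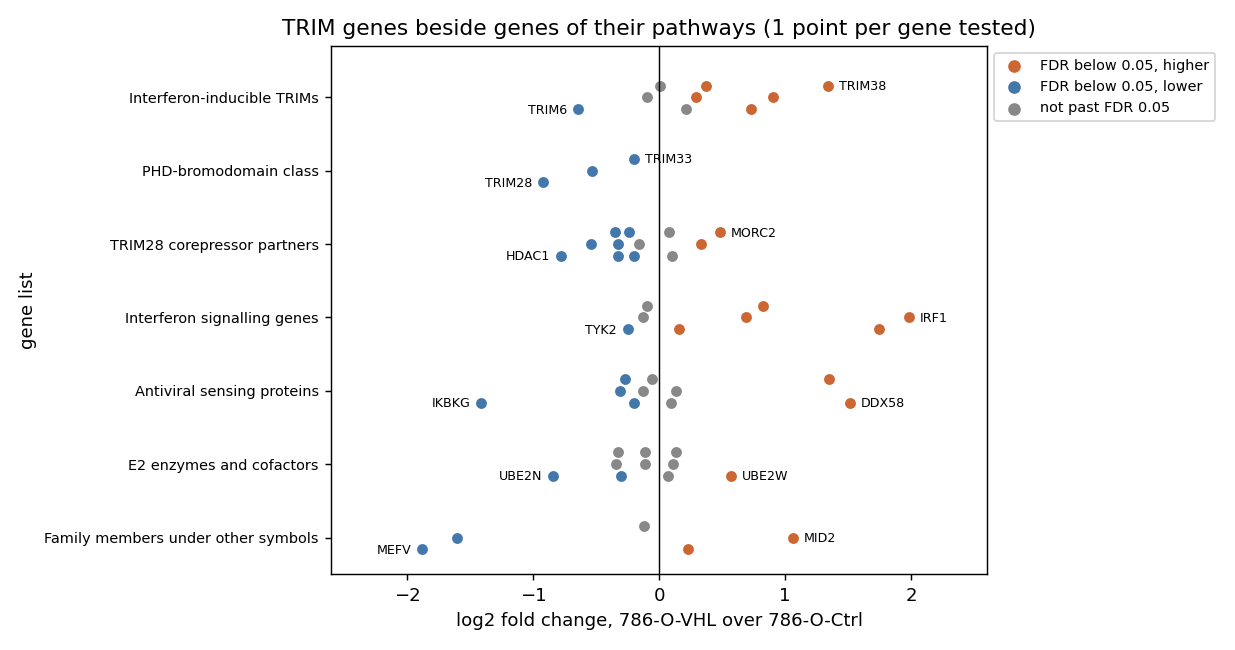
Each point is the log2 fold change (horizontal, VHL-restored over Ctrl) of 1 gene tested in 7 lists (rows), colored by the result of the test, with the lowest and highest gene of a list named. The interferon-inducible TRIM genes run from TRIM6 at -0.64 to TRIM38 at 1.34. The genes listed for the PHD-bromodomain class all lie left of 0, and their relative TRIM66, which was higher, is not in that row.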

How the data were processed

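The series holds 4 RNA-seq libraries, 2 per subline. The authors aligned reads to hg19 and deposited raw counts per gene, without normalization. CASAVA and STAR are named in the submitters' processing notes, while no source used here names the counting tool, the strand setting or the annotation. Counts were tested with edgeR 4.0.16 (R 4.3.3): filterByExpr at a minimum count of 10 (12335 genes kept), TMM scaling, a model of group alone, and quasi-likelihood F tests adjusted by Benjamini-Hochberg. Standard errors are implied by F. The paper used DESeq2, which served as an alternative (1.42.0), as did limma-voom (limma 3.58.1), other scalings and filters, and each library left out. On counts simulated for 12335 genes of this comparison, edgeR recovered 189 of 200 changed genes with 14 false calls. These counts are not split by fold size, and recovery of genes that change by less than 2-fold was not tested. Of the 19 members called, only 4 reached 2-fold, so for the other calls recovery was not tested. In the data 64.5% of all genes were called, a far larger share than 200 of 12335. The number of false calls at such a share was not tested. Annotation (GENCODE on GRCh37) matched 39 of 39 members. Every library was counted as 1 replicate. Values are given for every library for members with an FDR under 0.05 and at least 2-fold, for the interferon-inducible members, for members with no count in a library, and for other members where a result turned on them. Genes outside the family are named from the fixed lists, and of these only some. The interferon signaling list was shortened after its values were seen, since 1 gene is not reported here, and no median is given for it. Members and lists were chosen with earlier results of these data known.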

Additional observations from a re-analysis of the deposited data

How the results depend on the processing

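Under 11 alternatives (DESeq2, limma-voom, RLE size factors, library totals alone, no filter, at least 10 counts in every library, thinning to the shallowest library, and each library left out in turn), between 8 and 15 members were higher, between 6 and 9 were lower and 0 passed 4-fold with an FDR under 0.01. An FDR of 0.05 with the 4-fold threshold also gave 0. Under the alternatives that kept all 4 libraries, 2816 to 5077 of all genes were higher and 2855 to 4041 were lower. Between 10730 and 12908 genes were tested in these. Thinning was chosen after seeing the data. Of the 19 calls, 12 kept direction and threshold under every alternative that gave a value. Counts of calls also moved with single libraries left out, both for members and for all genes. Calls gained included TRIM8, TRIM21, TRIM59 and TRIM73 with library totals alone (FDR 0.0440, 0.0189, 0.0451 and 0.0493 by edgeR) and TRIM74 by limma-voom (0.0483). No called member reversed. DESeq2 lost 5 calls, and leaving out 786-O-VHL replicate 2 lost 5, where a shallow library stands alone and is assumed to vary like the other group. The cause of single losses was not tested. The shallow 786-O-VHL library limits genes with few counts (TRIM54, TRIM69, TRIM73 and TRIM74). No paired analysis was possible because the 786-O-Ctrl columns carry no distinct replicate numbers.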
